A study of Homo sapiens with 12 samples.

Results

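The insulin and insulin-like growth factor (IGF) system was followed in HK2 cells, an immortalised line of human proximal tubule cells, through 10 genes: the 7 IGF binding proteins IGFBP1 to IGFBP7, the insulin receptor INSR, the IGF receptor IGF1R and the receptor substrate IRS1. The genes were taken by name and matched by symbol to the Ensembl identifiers of the expression tables, which list 62703 genes. All 10 were found, and 7 of them reached the level needed for testing.

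The data are RNA sequencing of 12 libraries, with 3 libraries in each of 4 groups. NG cells were kept in 5.5 mM glucose and given a control vector, and HG cells were kept in 50 mM glucose. si-FGF9 cells were kept in 5.5 mM glucose and transfected with an siRNA against the growth factor FGF9. HG+OE-FGF9 cells were kept in 50 mM glucose and given a lentiviral vector that overexpresses FGF9. All groups are HK2 cells of the same bought-in line. A non-targeting siRNA is not among the 4 groups, so the siRNA and its transfection cannot be told apart in si-FGF9. Likewise, no vector is stated for HG, so FGF9 overexpression and its vector cannot be told apart in HG+OE-FGF9. For the same reason, high glucose and the lack of a control vector cannot be told apart in HG versus NG. The results text of the study describes the NG medium as one with mannitol and the vector as adenoviral, whereas the labels and the methods give the conditions used here. Without mannitol in NG, glucose and osmolarity cannot be told apart in HG versus NG. Nothing states that the 3 libraries of a group came from separate cultures, so p-values measure the spread between libraries, which may be technical.

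Insulin and the IGFs act through INSR and IGF1R, tyrosine kinases of the cell surface that phosphorylate docking proteins such as IRS1, from which the signal passes to PI3K, AKT and mTOR. The secreted binding proteins hold IGFs in the fluid around cells, and proteases release the IGFs again. IGFBP3 is the main carrier in blood, IGFBP6 prefers IGF2, IGFBP4 is cut by the protease PAPPA, and IGFBP7 binds IGFs weakly and insulin better than its relatives do. In the kidney the system is studied for tubule growth and for the changes that accompany diabetes.

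Levels are TPM (the share of all transcripts, scaled to the same total in every library), which account for transcript length, so that levels of different genes can be set side by side. Differences are on the log2(TPM + 1) scale, on which changes of weakly expressed genes come out smaller than they are, and were tested with limma over the 14639 genes that had at least 1 TPM in 3 or more libraries. A gene is said to have risen or fallen where its Benjamini-Hochberg adjusted p was under 0.05, and to be called where it met the rule of the study, which asks for an absolute log2 fold change of 1 or more and an unadjusted p under 0.01. An exact two-sided permutation test of 3 libraries against 3 cannot give a p below 0.1. TPM keep no read depth, so the depth of each library is unknown. Between 11549 and 13949 genes per library had at least 1 TPM. FGF9 itself was at 0 TPM in the 9 libraries outside HG+OE-FGF9 and at 3.34, 4.03 and 3.82 TPM within it, so the siRNA label could not be checked on its target.

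The direction of many genes was shared. Over the genes tested, the median log2 fold change stood at -0.39 for HG versus NG, at -0.79 for si-FGF9 versus NG and at -0.13 for HG+OE-FGF9 versus HG, and scaling the libraries by the median of ratios brought it to 0, -0.01 and -0.03. Fold changes below are therefore given beside these medians and, where it matters, under that scaling, quantile normalization and a correction for the GC content of transcripts. The first 2 comparisons use the same NG libraries, and HG+OE-FGF9 versus HG uses the HG libraries of the first comparison.

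The cells held epithelial transcripts but few of the genes that define a mature proximal tubule. Of 12 proximal tubule markers 5 reached 1 TPM in at least 3 libraries, among them GGT1 and PAX8, while LRP2, CUBN and SLC22A6 stayed under 0.1 TPM. Of 8 epithelial markers 7 reached it, namely KRT8, KRT18, KRT19, KRT7, EPCAM, CDH2 (N-cadherin) and CDH6. The other, CDH1 (E-cadherin), stayed at or under 0.28 TPM in every library. Endothelial markers summed to at most 0.15 TPM, and the leukocyte markers PTPRC and CD3E were under 0.1 TPM, whereas CD68, the third of that list, was at 108 to 159 TPM in all libraries.

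The start regions of IGFBP3, IGFBP4 and IGF1R are shown because these genes moved in different directions. On TPM as deposited, IGFBP3 and IGF1R fell in both HG and si-FGF9, and IGFBP4 rose in si-FGF9. The IGFBP3 falls did not hold under median-of-ratios scaling. The IGFBP4 rise did not hold with the GC correction or without some of the single libraries. Each is the 250 bases before the RefSeq transcription start on GRCh38.p14, written 5′ to 3′ on the strand of the gene, with capitals marking the GC box GGGCGG (or CCGCCC, the other strand) and the TATA motif TATAAA. They are IGFBP3 at chr7:45921273-45921522, minus strand, IGFBP4 at chr17:40443200-40443449, plus strand, and IGF1R at chr15:98648289-98648538, plus strand. The IGFBP3 window lies within the span of that gene in GENCODE 29 (45912245 to 45921874) and shares 2 bases with its exons.
IGFBP3: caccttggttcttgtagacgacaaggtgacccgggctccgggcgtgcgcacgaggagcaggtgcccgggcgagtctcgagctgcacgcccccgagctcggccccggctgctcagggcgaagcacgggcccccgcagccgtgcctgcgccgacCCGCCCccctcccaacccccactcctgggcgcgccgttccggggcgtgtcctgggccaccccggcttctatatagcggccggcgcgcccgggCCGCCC
IGFBP4: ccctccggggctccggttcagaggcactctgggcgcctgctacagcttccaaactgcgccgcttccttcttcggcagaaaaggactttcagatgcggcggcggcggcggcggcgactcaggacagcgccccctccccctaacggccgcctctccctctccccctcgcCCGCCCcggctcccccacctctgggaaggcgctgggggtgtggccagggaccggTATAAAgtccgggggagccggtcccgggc
IGF1R: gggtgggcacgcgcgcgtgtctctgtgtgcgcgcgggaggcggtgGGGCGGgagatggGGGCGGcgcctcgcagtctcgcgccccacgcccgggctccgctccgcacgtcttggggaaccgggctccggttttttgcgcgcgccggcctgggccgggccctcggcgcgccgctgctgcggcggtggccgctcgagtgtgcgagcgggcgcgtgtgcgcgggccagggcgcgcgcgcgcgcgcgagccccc

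All of these windows were richer in G and C than the median of 58.0% over 35116 promoters, at 76.0% for IGFBP3, 71.6% for IGFBP4 and 81.2% for IGF1R. IGFBP3 and IGF1R each held 2 GC boxes, and IGFBP4 held 1 GC box and a TATA motif. The GC box occurred in 42.6% of all promoters and TATAAA in 10.7%, both strands searched. The INSR and IRS1 windows, at 78.4% and 80.8% G and C, held 4 GC boxes each. The forkhead core GTAAACA, found in 2.98% of promoters, and the AP-1 motif TGACTCA, found in 4.2%, were in none of these 5 windows. The IGFBP6 window, not shown because it overlaps the first exon of that gene, held 1 GC box and 1 forkhead core at 61.2% G and C. These matches describe letters and were not tested for binding. IGFBP1 and IGFBP7 were not among the promoter sequences.

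Transcripts of the binding proteins were dominated by 3 genes. IGFBP7, IGFBP3 and IGFBP6 together made up nearly all of the summed IGFBP TPM, whereas IGFBP4 gave 0.29% to 0.886% of it in any library. IGFBP1, the binding protein that insulin represses in liver, lay between 0.11 and 1.07 TPM. IGFBP2 lay between 0 and 0.34 TPM and IGFBP5 between 0 and 0.22 TPM. These 3 genes were not tested, and at an unknown depth such values are compared no further.

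**Figure D1:**
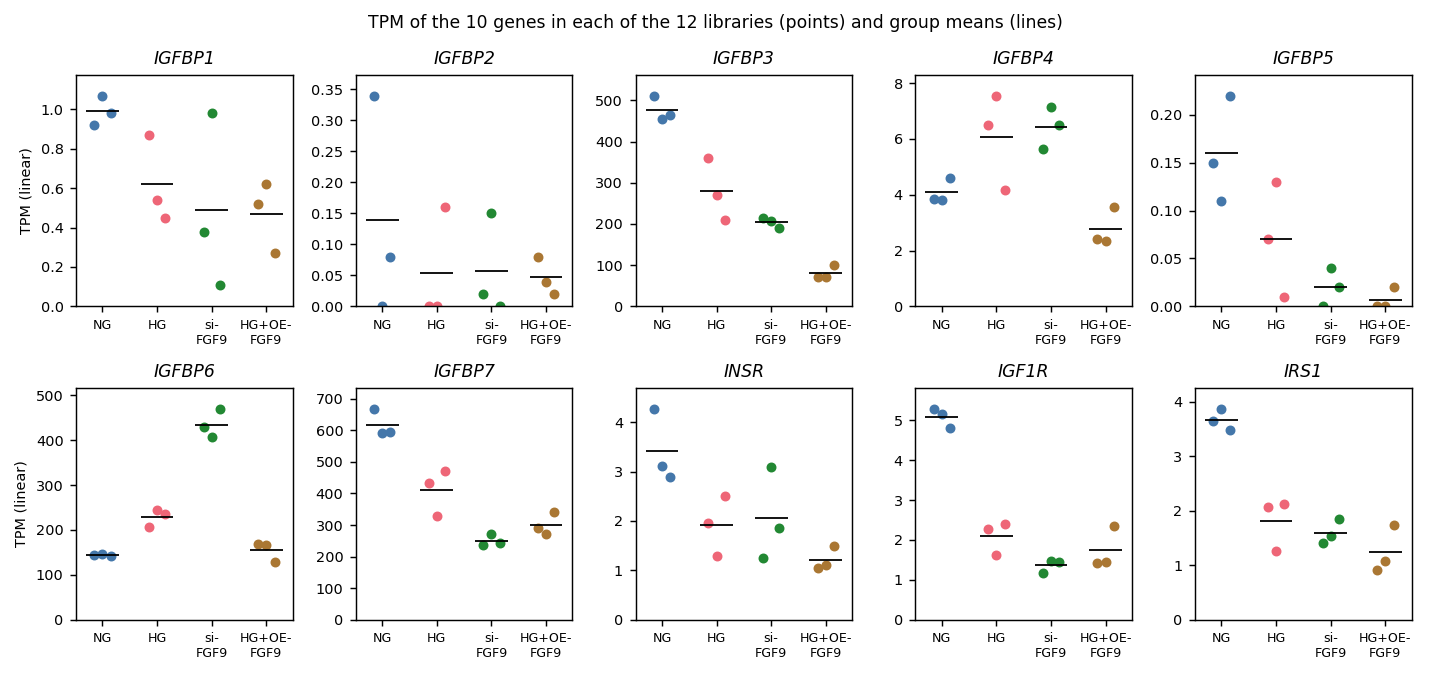
TPM of the 10 genes (vertical axes, linear, each starting at 0) in the 4 groups, with 1 point per library and a line at the group mean. IGFBP3, IGFBP7, IGF1R and IRS1 are highest in NG, IGFBP6 is highest in si-FGF9, and IGFBP1, IGFBP2 and IGFBP5 stay near or under 1 TPM.

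IGFBP3 (chromosome 7, 45912245 to 45921874, minus strand, GRCh38) fell in each of the 3 comparisons. The 3 NG libraries had 511, 456 and 465 TPM. The HG libraries had 360.4, 269.6 and 209.9 TPM. The si-FGF9 libraries had 214, 208 and 189 TPM, and the HG+OE-FGF9 libraries 70.3, 70.2 and 101 TPM. No HG or si-FGF9 library reached the lowest NG library, and no HG+OE-FGF9 library reached the lowest HG library.

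The log2 fold change of IGFBP3 was -0.80 in HG versus NG (standard error 0.19, limma adjusted p = 0.00557). In si-FGF9 versus NG it was -1.22 (adjusted p = 0.000135, limma). The largest difference of this gene in the 3 comparisons was HG+OE-FGF9 versus HG, at -1.77 (standard error 0.19, limma adjusted p = 0.000407). In the order of levels NG, HG, si-FGF9, HG+OE-FGF9, the neighbours HG and si-FGF9 did not differ beyond their spread (log2 difference 0.42, limma adjusted p = 0.107). Under median-of-ratios scaling the changes against NG were -0.29 in HG (limma adjusted p = 0.218) and -0.19 in si-FGF9 (limma adjusted p = 0.371), and with the GC correction the HG change was -0.46 (limma adjusted p = 0.0568). The si-FGF9 fall held with the GC correction (-0.55, limma adjusted p = 0.0158). Both falls held under quantile normalization, at -0.78 and -1.18 (limma adjusted p = 0.00518 and 0.000159). The change in HG+OE-FGF9 versus HG stayed between -1.79 and -1.63 under the 3 scalings and was called in each.

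IGFBP7 (chromosome 4, 57030773 to 57110385, minus strand) was the most abundant binding protein transcript in NG, HG and HG+OE-FGF9. Its NG libraries had 668, 593 and 595 TPM. The HG libraries had 433, 329 and 470.2 TPM, the si-FGF9 libraries 236, 270.1 and 244 TPM, and the HG+OE-FGF9 libraries 290.4, 273 and 342 TPM. All NG libraries lay above all others, and the HG and HG+OE-FGF9 ranges overlapped.

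IGFBP7 fell by 0.60 on the log2 scale in HG versus NG (limma adjusted p = 0.00569) and by 1.30 in si-FGF9 versus NG (limma adjusted p = 1.68e-05). In HG+OE-FGF9 versus HG the log2 fold change was -0.43, with a 95% interval from -0.75 to -0.12 (limma adjusted p = 0.0826). Without HG replicate 2 that change was -0.59 (limma adjusted p = 0.0196) and without HG+OE-FGF9 replicate 3 it was -0.53 (limma adjusted p = 0.0329), and with the GC correction it was -0.49 (limma adjusted p = 0.0248). In the order NG, HG, HG+OE-FGF9, si-FGF9, NG and HG differed and the lower neighbours did not differ beyond their spread. The groups si-FGF9 and HG, which are not neighbours, did differ (log2 difference -0.70, limma adjusted p = 0.00636). Under median-of-ratios scaling that difference did not hold (-0.18, limma adjusted p = 0.233). Median-of-ratios scaling left -0.09 in HG versus NG (limma adjusted p = 0.524) and -0.27 in si-FGF9 versus NG (limma adjusted p = 0.0426), and the second was then no longer called. Both falls held under quantile normalization, at -0.58 and -1.25 (limma adjusted p = 0.00846 and 3.85e-05). With the GC correction they were -0.38 and -0.77 (limma adjusted p = 0.0408 and 0.000387), and neither was called. Exons of IGFBP7 share 270 bases with POLR2B on the opposite strand, whose TPM ran from 2.77 to 46.63, and whether the reads were counted by strand is not given in the sources used here.

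IGFBP6 (chromosome 12, 53097436 to 53102345, plus strand) moved opposite to IGFBP3 and IGFBP7 against NG. The NG libraries had 144, 147 and 143 TPM. The HG libraries had 206, 245 and 235 TPM. The si-FGF9 libraries had 429, 407 and 469.9 TPM, and the HG+OE-FGF9 libraries 169.7, 165 and 129.6 TPM. Every si-FGF9 library lay above every other library, and the HG+OE-FGF9 libraries lay below HG and overlapped NG.

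IGFBP6 rose by 0.65 on the log2 scale in HG versus NG (standard error 0.13, limma adjusted p = 0.00234) and by 1.58 in si-FGF9 versus NG (standard error 0.13, limma adjusted p = 5.72e-06). It fell by 0.56 in HG+OE-FGF9 versus HG (limma adjusted p = 0.0196), which did not hold without HG+OE-FGF9 replicate 1 (limma adjusted p = 0.0688) or replicate 2 (limma adjusted p = 0.08) or under median-of-ratios scaling (-0.43, limma adjusted p = 0.18). That fall held under quantile normalization (-0.60, limma adjusted p = 0.0212) and with the GC correction (-0.61, limma adjusted p = 0.0109). The lowest neighbours, HG+OE-FGF9 and NG, did not differ beyond their spread (log2 difference 0.09, limma adjusted p = 0.575). The rise in si-FGF9 lay between 1.33 and 2.61 under the 3 scalings and was called in each. The rise in HG was 0.34 with the GC correction (limma adjusted p = 0.0673) and 1.16 with median-of-ratios scaling. The longest IGFBP6 transcript has 64.15% G and C, the highest among the 10 genes.

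IGFBP4 (chromosome 17, 40443461 to 40457731, plus strand) was low throughout. It had 3.85, 3.81 and 4.60 TPM in NG, 6.49, 7.55 and 4.16 TPM in HG, 5.65, 7.14 and 6.51 TPM in si-FGF9, and 2.43, 2.34 and 3.55 TPM in HG+OE-FGF9. HG replicate 3 lay within the NG range, whereas all si-FGF9 libraries lay above NG and all HG+OE-FGF9 libraries below both NG and HG.

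The log2 fold change of IGFBP4 in HG versus NG was 0.45 (95% interval -0.03 to 0.92, limma adjusted p = 0.107), and it was 0.66 without HG replicate 3 (limma adjusted p = 0.0116), 0.84 under median-of-ratios scaling (limma adjusted p = 0.0117) and 0.99 under quantile normalization (limma adjusted p = 0.00674). IGFBP4 rose by 0.55 in si-FGF9 versus NG (limma adjusted p = 0.0397), but this did not hold without any of 6 single libraries, where the highest limma adjusted p was 0.117 (NG replicates 1, 2 and 3, si-FGF9 replicates 2 and 3, and HG+OE-FGF9 replicate 1). Under median-of-ratios scaling and quantile normalization that rise was 1.39 and 1.55 and was called, and with the GC correction it was 0.41 (limma adjusted p = 0.0507). IGFBP4 fell by 0.89 in HG+OE-FGF9 versus HG (limma adjusted p = 0.0252), and the adjusted p was 0.101, 0.142 and 0.146 in limma without HG replicate 1, HG+OE-FGF9 replicate 1 and HG+OE-FGF9 replicate 2. With quantile normalization that fall was -0.76 (limma adjusted p = 0.0552). No neighbouring groups differed beyond their spread in the order si-FGF9, HG, NG, HG+OE-FGF9. The ends of that order, si-FGF9 and HG+OE-FGF9, did differ (log2 difference 0.99, limma adjusted p = 0.00711).

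Shares and ratios of binding protein transcripts within a library are unaffected by a single scaling factor per library, such as the median of ratios, but the GC correction, which acts gene by gene, does change them. It took the log2 change of IGFBP6 relative to IGFBP3 from 1.45 to 0.80 for HG versus NG, from 2.80 to 1.88 for si-FGF9 versus NG and from 1.21 to 1.17 for HG+OE-FGF9 versus HG. The summed TPM of the 7 IGFBP genes in NG was 1246.3 ± 71.9 (SD, n = 3), against 926.1 ± 77.6 in HG, 895.9 ± 13.2 under si-FGF9 and 540.2 ± 32.9 under HG+OE-FGF9. IGFBP3 took 38.3% ± 0.299 of it in NG, against 30.1% ± 6.62 in HG, 22.8% ± 1.76 under si-FGF9 and 14.8% ± 2.37 under HG+OE-FGF9. IGFBP6 took 11.6% ± 0.705, 24.9% ± 4.21, 48.5% ± 3.05 and 28.9% ± 5.54 in the same order. IGFBP7 took 49.6% ± 0.564, 44.2% ± 6.37, 27.9% ± 2.02 and 55.7% ± 3.18. IGFBP6 thus held the largest share in each si-FGF9 library, and IGFBP7 in each library of the other groups.

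**Figure D2:**
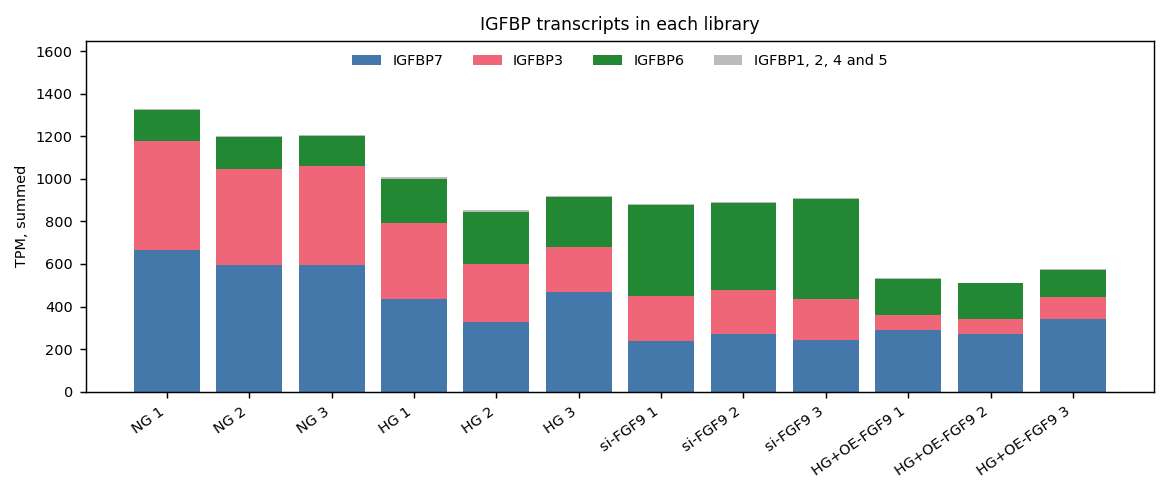
Stacked TPM of the IGFBP genes in each of the 12 libraries (vertical axis, linear from 0), coloured by gene, with IGFBP1, IGFBP2, IGFBP4 and IGFBP5 summed in grey. The bars of NG reach 1200.7 to 1329.2 TPM and those of HG+OE-FGF9 511.3 to 576.0 TPM, and the IGFBP6 segment is tallest in si-FGF9.

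The ratio of IGFBP6 to IGFBP3 was 0.283, 0.323 and 0.307 in the NG libraries, 0.571, 0.911 and 1.12 in HG, 2.00, 1.95 and 2.48 under si-FGF9, and 2.41, 2.36 and 1.28 under HG+OE-FGF9. The groups did not overlap in any of the 3 comparisons, with folds of 2.75, 7.03 and 2.33 (exact permutation test, two-sided p = 0.1 each, the smallest possible). The ratio of IGFBP3 to IGFBP7 was 0.772 ± 0.00874 (SD, n = 3) in NG, 0.699 ± 0.219 in HG and 0.818 ± 0.0781 in si-FGF9, which overlapped, and 0.265 ± 0.0275 in HG+OE-FGF9, which lay below all HG libraries. Over 11 such shares, sums and ratios, built from the same few genes, 33 exact permutation tests were run in the 3 comparisons. With 3 libraries a side none could give a p below 0.1, so an adjusted p under 0.05 was out of reach. The lowest adjusted p of these exact permutation tests was 0.143.

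Among the receptors, IGF1R (chromosome 15, 98648539 to 98964530, plus strand) was highest in NG. It had 5.29, 5.15 and 4.81 TPM in NG, 2.28, 1.63 and 2.39 TPM in HG, 1.17, 1.47 and 1.46 TPM in si-FGF9, and 1.43, 1.45 and 2.34 TPM in HG+OE-FGF9. All NG libraries lay above all others.

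IGF1R fell by 0.98 on the log2 scale in HG versus NG (standard error 0.18, limma adjusted p = 0.00182) and by 1.36 in si-FGF9 versus NG (limma adjusted p = 4.57e-05). The log2 fold change in HG+OE-FGF9 versus HG was -0.19 (95% interval -0.59 to 0.21, limma adjusted p = 0.522). Below NG, neighbouring groups did not differ beyond their spread. The fall in si-FGF9 was -0.62, -0.38 and -0.81 under median-of-ratios scaling, quantile normalization and the GC correction, with limma adjusted p of at most 0.0405, so that the direction held and the call under the rule of the study did not.

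INSR (chromosome 19, 7112255 to 7294034, minus strand) had 4.27, 3.11 and 2.90 TPM in NG, 1.96, 1.28 and 2.51 TPM in HG, 1.24, 3.10 and 1.85 TPM in si-FGF9, and 1.04, 1.11 and 1.50 TPM in HG+OE-FGF9. The HG libraries lay below NG, and si-FGF9 replicate 2 lay within the NG range. INSR differed by a log2 fold change of -0.61 for HG versus NG (limma adjusted p = 0.0578), of -0.56 for si-FGF9 versus NG (limma adjusted p = 0.0592) and of -0.38 for HG+OE-FGF9 versus HG (limma adjusted p = 0.327). None of these passed, and none of its neighbouring groups differed beyond their spread. The ends of its order did differ, with HG+OE-FGF9 versus NG at -0.99 (limma adjusted p = 0.0039). That difference was -0.63 with the GC correction (limma adjusted p = 0.0227). It did not hold under median-of-ratios scaling (-0.53, limma adjusted p = 0.055) or quantile normalization (-0.42, limma adjusted p = 0.103). Leaving out HG replicate 3 gave -0.76 in HG versus NG (limma adjusted p = 0.0265), and leaving out si-FGF9 replicate 2 gave -0.80 in si-FGF9 versus NG (limma adjusted p = 0.0132). Leaving out libraries of a group outside the comparison also moved the adjusted p of INSR, to 0.0469 and 0.0383 in limma for HG versus NG (without si-FGF9 replicate 1 or 2) and to 0.0481 and 0.0457 for si-FGF9 versus NG (without HG replicate 2 or 3). The direction in si-FGF9 turned under the other scalings, to 0.17, 0.38 and 0.14.

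The ratio of IGF1R to INSR was 1.24, 1.66 and 1.66 in NG, 1.16, 1.27 and 0.952 in HG, 0.944, 0.474 and 0.789 under si-FGF9, and 1.38, 1.31 and 1.56 under HG+OE-FGF9. The si-FGF9 ratios lay below those of NG and the HG+OE-FGF9 ratios above those of HG (exact permutation test, two-sided p = 0.1 for each), whereas HG and NG overlapped.

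IRS1 (chromosome 2, 226731317 to 226799759, minus strand), the docking protein of both receptors, had 3.64, 3.87 and 3.49 TPM in NG, 2.07, 1.26 and 2.13 TPM in HG, 1.40, 1.54 and 1.85 TPM in si-FGF9, and 0.92, 1.07 and 1.73 TPM in HG+OE-FGF9. All NG libraries lay above all others. IRS1 fell by 0.74 on the log2 scale in HG versus NG (limma adjusted p = 0.00832) and by 0.85 in si-FGF9 versus NG (limma adjusted p = 0.00185), and its log2 fold change in HG+OE-FGF9 versus HG was -0.33 (95% interval -0.76 to 0.09, limma adjusted p = 0.273). Below NG, its neighbouring groups did not differ beyond their spread. Neither fall held under median-of-ratios scaling, at -0.36 (limma adjusted p = 0.095) and -0.12 (limma adjusted p = 0.54), nor under quantile normalization, where IRS1 in si-FGF9 was at 0.10 (limma adjusted p = 0.613). With the GC correction the fall in HG held (-0.45, limma adjusted p = 0.042) and that in si-FGF9 did not (-0.24, limma adjusted p = 0.204).

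**Figure D3:**
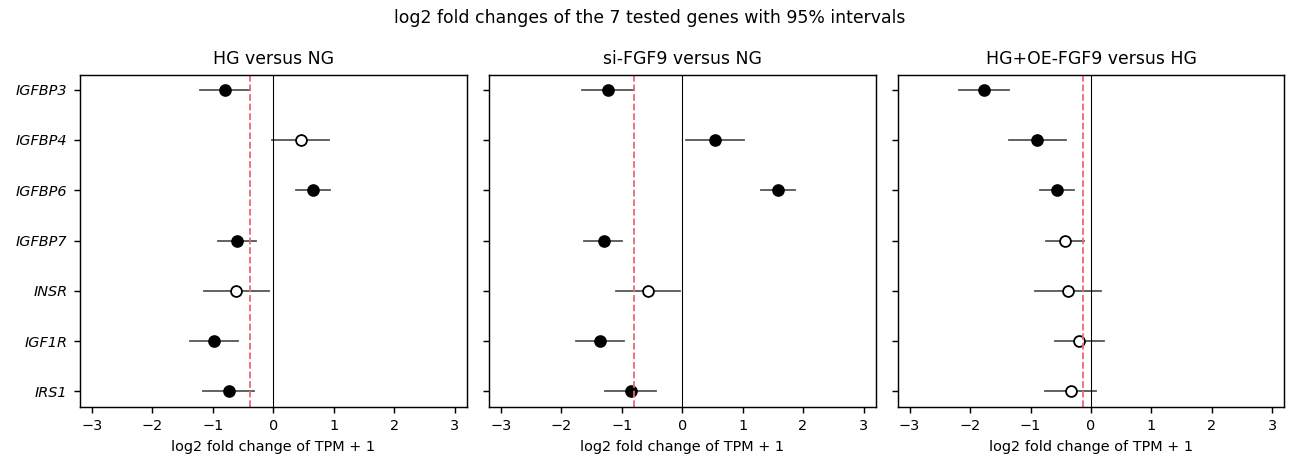
log2 fold changes of TPM + 1 (horizontal axis) of the 7 tested genes in the 3 comparisons, with 95% intervals. Filled points have a Benjamini-Hochberg adjusted p under 0.05 in limma, and the dashed line is the median of all 14639 genes. IGFBP6 lies to the right of zero against NG, and IGFBP3 is the farthest to the left in HG+OE-FGF9 versus HG.

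Counted together, 1 of the 7 tested genes rose and 4 fell in HG versus NG, where 8.53% of all genes tested rose and 40.5% fell. In si-FGF9 versus NG, 2 rose and 4 fell, against 11.6% and 57.7% of all genes. In HG+OE-FGF9 versus HG, 0 rose and 3 fell, against 4.82% and 4.71%, with 4 members at an unadjusted limma p under 0.05. By the rule of the study, 0 of 7 were called in HG versus NG (24.4% of all genes, with 6 members at an unadjusted limma p under 0.05), 4 in si-FGF9 versus NG (47.6%) and 1 in HG+OE-FGF9 versus HG (5.61%). The called genes were IGFBP3, IGFBP7, IGF1R and IGFBP6 in si-FGF9, and IGFBP3 in HG+OE-FGF9. By adjusted p, median-of-ratios scaling gave 2 members higher and 1 lower in HG versus NG, 2 and 2 in si-FGF9 versus NG, and 0 and 2 in HG+OE-FGF9 versus HG. With quantile normalization, 2 were higher and 3 lower in either comparison with NG, and 0 higher and 2 lower in HG+OE-FGF9 versus HG. The GC correction left 0 higher and 3 lower in HG versus NG, 1 and 3 for si-FGF9 versus NG, and 0 and 4 for HG+OE-FGF9 versus HG. Shares of all genes were taken from TPM as deposited alone, so the counts under these scalings have none beside them. Single libraries moved the counts of called members: in HG versus NG, 1 member was called without NG replicate 3 or HG replicate 3 and 2 without HG replicate 1, and in HG+OE-FGF9 versus HG, 2 were called without HG replicate 3 or HG+OE-FGF9 replicate 3. The median log2 fold changes of the 7 genes were -0.61, -0.85 and -0.43, beside -0.39, -0.79 and -0.13 over all genes. The share of members that fell in si-FGF9 versus NG was near that of all genes. In the comparisons that complete the order of levels, an adjusted p under 0.05 was reached by 64.9% of all genes in HG+OE-FGF9 versus NG, 32.9% in si-FGF9 versus HG and 24.9% in si-FGF9 versus HG+OE-FGF9. In total, 7 of 21 neighbouring pairs of groups differed, and 11 did without HG replicate 3. The pairs were set by the means of these same data, and no share of such pairs over all genes was taken. This count is therefore a description.

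**Figure D4:**
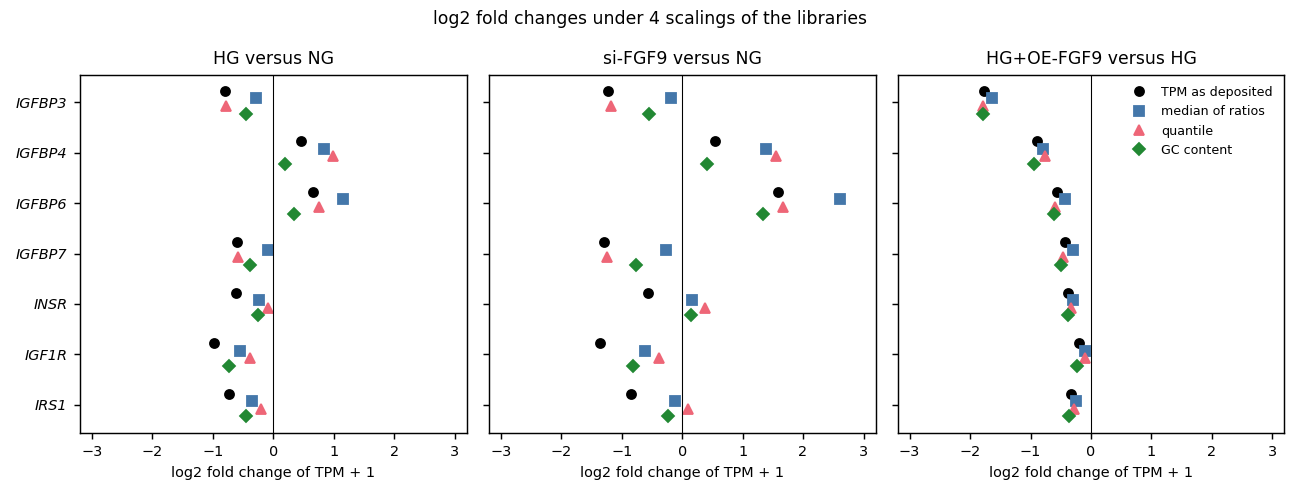
log2 fold changes of TPM + 1 (horizontal axis) of the 7 tested genes in the 3 comparisons, from TPM as deposited and under the 3 other scalings. Points of the first 2 comparisons spread widely and INSR and IRS1 cross zero in si-FGF9 versus NG, whereas those of HG+OE-FGF9 versus HG lie close together.

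Of the ligands, IGF2 was measured and fell in all 3 comparisons on TPM as deposited, while INS was listed at 0 TPM in all 12 libraries and IGF1 stayed at or under 0.34 TPM. IGF2 had 7.17, 9.71 and 9.39 TPM in NG, 4.42, 3.73 and 5.44 TPM in HG, 3.36, 3.43 and 2.27 TPM in si-FGF9, and 2.15, 2.10 and 2.65 TPM in HG+OE-FGF9, with log2 fold changes of -0.82, -1.28 and -0.74 (limma adjusted p = 0.0057, 0.000119 and 0.0386). In HG versus NG the fall of IGF2 did not hold under median-of-ratios scaling (-0.37, limma adjusted p = 0.103) or quantile normalization (-0.20, limma adjusted p = 0.327), and in si-FGF9 versus NG it was -0.43 under the first (limma adjusted p = 0.0479) and did not hold under the second (-0.22, limma adjusted p = 0.255). With the GC correction IGF2 fell in all 3 comparisons, at -0.98, -1.28 and -0.79 (limma adjusted p = 0.00598, 0.000337 and 0.0246). The IGF2 receptor gene IGF2R, whose product removes IGF2 from the cell surface, had 73.7 ± 4.87 TPM (SD, n = 3) in NG, against 33.1 ± 4.01 in HG, 11.3 ± 0.663 under si-FGF9 and 21.1 ± 7.39 under HG+OE-FGF9. It fell by 1.14 on the log2 scale in HG and fell by 2.61 in si-FGF9 against NG (limma adjusted p = 0.00149 and 4.63e-06), and its log2 fold change was -0.67 in HG+OE-FGF9 versus HG (limma adjusted p = 0.0591), which passed at -0.53, -0.59 and -0.68 under median-of-ratios scaling, quantile normalization and the GC correction (limma adjusted p = 0.0394, 0.0341 and 0.0139). IGF2R was more abundant than IGF1R in every library, at 13.0 to 16.3 times in NG and 7.21 to 9.78 times in si-FGF9. INSRR, the other receptor of the list, was at or under 0.01 TPM.

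The wider pathway list held 54 genes, of which 44 were tested. In HG versus NG, 3 rose and 24 fell (8.53% and 40.5% of all genes), and 15 were called, all lower (24.4% of all genes in either direction). In si-FGF9 versus NG, 3 rose and 30 fell (11.6% and 57.7% of all genes), with 2 called higher and 21 lower (47.6% of all genes in either direction). In HG+OE-FGF9 versus HG, 4 rose and 4 fell (4.82% and 4.71% of all genes), with 3 called in each direction (5.61% of all genes). The median log2 fold changes of the list were -0.68, -0.93 and -0.26, beside -0.39, -0.79 and -0.13 over all genes. The calls against NG depended on the scaling: median-of-ratios scaling gave 3 higher and 6 lower in HG versus NG and 10 higher and 11 lower in si-FGF9 versus NG, and left 3 and 3 in HG+OE-FGF9 versus HG. Shares of all genes were not taken under that scaling, so these counts are a description. Without HG replicate 3, 1 gene was called higher in HG versus NG, and without HG+OE-FGF9 replicate 3, 5 were called lower in HG+OE-FGF9 versus HG.

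The PI3K and AKT genes, which carry the signal from the receptor substrates, had 10 tested members, of which 6 fell and 0 rose in HG versus NG, 8 fell and 0 rose in si-FGF9 versus NG, and 0 changed in HG+OE-FGF9 versus HG (3 at an unadjusted limma p under 0.05). Of all genes tested, 40.5% fell in HG versus NG and 57.7% in si-FGF9 versus NG. Under median-of-ratios scaling 2 of the 10, PIK3CD and PIK3R2, rose in both comparisons with NG, and 5 and 7 fell. With the GC correction 3 and 6 fell against NG, 0 rose, and 1 fell in HG+OE-FGF9 versus HG. The shares of all genes given here are from TPM as deposited and were not taken under these scalings. PIK3R1, the p85 regulatory subunit of PI3K, had 21.3 ± 3.71 TPM (SD, n = 3) in NG and 3.66 ± 1.64 in HG, a log2 fold change of -2.32 (limma adjusted p = 0.000852). With the GC correction it was -1.30. Of 8 TSC and mTOR genes, 1 rose and 3 fell in HG versus NG and 1 rose and 5 fell in si-FGF9 versus NG. The riser in si-FGF9 was EIF4EBP1, an mTOR-controlled brake on translation, at 385, 338 and 461 TPM against 119, 141 and 148 TPM in NG (log2 fold change 1.52, limma adjusted p = 9.92e-05).

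Among the negative regulators, SOCS3 had the largest fall of the pathway list in si-FGF9 versus NG and in HG+OE-FGF9 versus HG. SOCS3, a suppressor of cytokine and insulin receptor signalling, had 44.2, 45.9 and 48.1 TPM in NG, 12.1, 11.3 and 9.75 TPM in HG, 2.67, 3.77 and 1.88 TPM in si-FGF9, and 1.45, 1.84 and 5.37 TPM in HG+OE-FGF9. It fell by 3.67 on the log2 scale in si-FGF9 versus NG (limma adjusted p = 6.26e-06), and its log2 fold change there lay between -3.64 and -2.77 under the 3 scalings. It fell by 1.76 in HG+OE-FGF9 versus HG (limma adjusted p = 0.00598), and the limma adjusted p was 0.0536 and 0.0547 without HG+OE-FGF9 replicates 1 and 2. TRIB3, a pseudokinase that binds AKT, had 167, 167 and 122 TPM in HG+OE-FGF9 against 64.6, 75.2 and 58.5 TPM in HG, a rise of 1.18 (limma adjusted p = 0.00361). GRB14, an adaptor that restrains the insulin receptor, fell by 1.65 in HG+OE-FGF9 versus HG, from 34.2 ± 7.26 to 10.4 ± 3.68 TPM (SD, n = 3, limma adjusted p = 0.00279).

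Among the 6 tested IGFBP proteases, their inhibitors and cofactors, 1 rose and 4 fell in HG versus NG and in si-FGF9 versus NG. In HG+OE-FGF9 versus HG, 1 rose and 1 fell. Of all genes tested, 8.53% rose and 40.5% fell in HG versus NG. The shares were 11.6% and 57.7% in si-FGF9 versus NG, and 4.82% and 4.71% in HG+OE-FGF9 versus HG. ADAM9, a membrane metalloprotease, fell by 2.43 in HG and fell by 2.82 in si-FGF9 on the log2 scale against NG, with 18.9 ± 4.84 TPM (SD, n = 3) in NG against 3.00 ± 2.19 in HG and 1.96 ± 1.20 under si-FGF9 (limma adjusted p = 0.00125 and 7.26e-05). With the GC correction these log2 fold changes were -1.37 and -1.22. TMEM219, a membrane protein described as a receptor of IGFBP3, rose by 1.47 in si-FGF9 versus NG, from 39.8 ± 8.90 to 110.3 ± 6.89 TPM (SD, n = 3, limma adjusted p = 2.87e-05). STC2, an inhibitor of the IGFBP4 protease PAPPA, rose by 1.09 in HG+OE-FGF9 versus HG. It had 117, 122 and 111 TPM against 45.6, 36.2 and 96.8 TPM (limma adjusted p = 0.0281). The rise of STC2 did not hold without HG replicate 1, HG+OE-FGF9 replicate 1 or HG+OE-FGF9 replicate 2 (limma adjusted p = 0.115, 0.125 and 0.135).

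**Figure D5:**
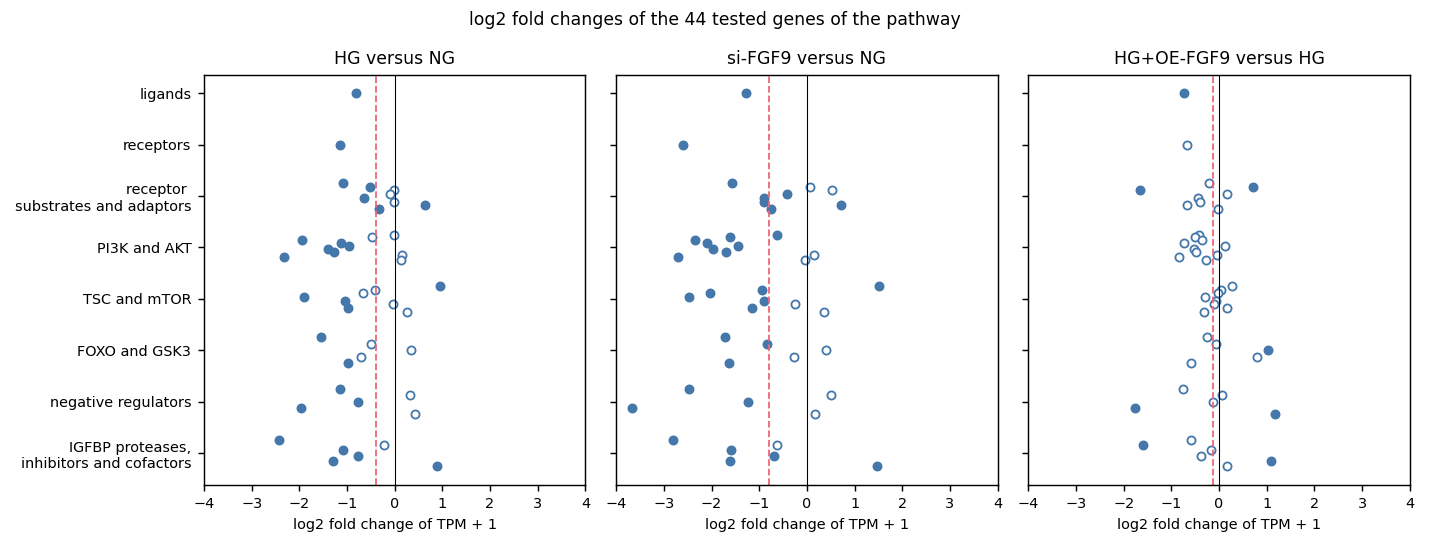
log2 fold changes of TPM + 1 (horizontal axis) of the 44 tested pathway genes, by list, in the 3 comparisons. Filled points have a Benjamini-Hochberg adjusted p under 0.05 in limma, and the dashed line is the median of all genes. Most points lie to the left of zero against NG, and those of HG+OE-FGF9 versus HG lie around it with 4 filled points on each side.

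Across the 12 libraries, the genes most like each member in log2(TPM + 1) were MMP7, MMP1 and ENO2 for IGFBP3 (Pearson's r = 0.988, 0.987 and 0.977), CA9, S100A10 and EBF4 for IGFBP4 (0.964, 0.946 and 0.935), and ARHGEF10, LINC01111 and ZDHHC13 for IGFBP7 (0.994, 0.992 and 0.992). For IGFBP6 they were QSOX1, GGT1 and RPL13AP5 (0.971, 0.967 and 0.960), of which the last is a pseudogene whose reads may belong to its parent gene. For IGF1R they were PWWP2A, CMTR2 and GDI2 (0.995, 0.994 and 0.994), for IRS1 ARFIP1, VPS45 and ITGA1 (0.991, 0.984 and 0.984), and for INSR RNF149, CXADR and SMCHD1 (0.949, 0.935 and 0.931). The 12 points fall into 4 groups and share their scaling and base composition, so these values are a description.

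The summed TPM of 7 fibroblast markers was highest in NG, as IGFBP3 and IGFBP7 were. It was 62.5 to 89.2 in NG, 17.2 to 41.0 in HG, 11.6 to 21.0 in si-FGF9 and 11.6 to 22.5 in HG+OE-FGF9. The last 2 ranges overlapped, whereas mean IGFBP3 was 203.8 TPM in si-FGF9 and 80.5 TPM in HG+OE-FGF9. Most of the sum was LUM, at 55.7 to 84.0 TPM in NG. Of these 7 genes, LUM and COL1A1 reached 1 TPM in at least 3 libraries, and the defining markers COL3A1 and PDGFRA stayed under 0.1 TPM. The proximal tubule markers summed to 153.6 to 165.6 TPM in NG, 163.4 to 201.8 in HG, 218.2 to 238.8 in the si-FGF9 libraries and 109.2 to 122.6 with HG+OE-FGF9. This sum was carried by GGT1, at 71.7 to 83.8 TPM in NG and 175 to 195 TPM in si-FGF9, and by PAX8, which went the other way, at 78.1 to 79.1 TPM in NG and 35.9 to 41.6 TPM in si-FGF9. The part of these markers in the results was not tested. In bulk RNA, fewer cells with a transcript and less of it per cell cannot be told apart.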

How the data were processed

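RNA of HK2 cells was sequenced on a HiSeq3000 (12 libraries, 3 per group), and groups were taken from the sample labels. The authors deposited TPM, given to 2 decimals and summing to the same total in every library. The submitters' processing notes list Bowtie 0.12.2 and the mouse build mm8. The aligner, build and annotation behind these human TPM are otherwise not given in the sources used here. Of 62703 identifiers, 62625 were matched to GENCODE 29 (GRCh38). Promoters came from RefSeq (GRCh38.p14).

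Values of log2(TPM + 1) were fitted in limma 3.58.1 (R 4.3.3) with a variance trend, with all 12 libraries in one model. Genes with at least 1 TPM in 3 libraries entered. p-values were adjusted by Benjamini-Hochberg over all genes tested. Ratios were tested by exact permutation (SciPy 1.17.1). The fit was tested on simulated data.

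The members, gene lists and tests were chosen with earlier results of these data known. All 10 members are named. Of the pathway genes, those named are the 2 strongest called risers and the 2 strongest called fallers of each comparison, by log2 fold change, and the ligand and receptor lists are given in full, a choice made after their values were seen. For each tested member the 3 genes with the highest Pearson r are named. Alternatives were no filter, only the 6 libraries compared, other p thresholds, a pseudocount of 0.1, median-of-ratios scaling, quantile normalization, GC correction (natural spline, 5 degrees of freedom), the replicate number as a block, and each library left out in turn. Applying them to the pathway list was added after the data were seen. A withheld item of the pathway list is not reported here, and the list counts leave it out.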

Additional observations from a re-analysis of the deposited data

How the results depend on the processing

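The count of members called by the rule of the study was 0 of 7 in HG versus NG. It was 5 with an adjusted p under 0.05 alone, 2 with a pseudocount of 0.1, 1 with median-of-ratios scaling (IGFBP6), and 0 to 2 when each library was left out, with 1 without NG replicate 3 or HG replicate 3 (IGF1R) and 2 without HG replicate 1 (IGF1R and IGFBP3). The 4 members called in si-FGF9 versus NG became 2 with median-of-ratios scaling (IGFBP4 and IGFBP6) and 1 with the GC correction, alone or with the replicate block (IGFBP6), and stayed at 4 whichever library was left out. The 1 member called in HG+OE-FGF9 versus HG became 3 with an adjusted p under 0.05 alone, 2 with a pseudocount of 0.1, and 1 to 2 when each library was left out, with 2 without HG replicate 3 or HG+OE-FGF9 replicate 3 (IGFBP4 added). The 7 neighbouring pairs that differed became 6 to 11 with a library left out, and 11 without HG replicate 3. Shares of all genes were not taken for the neighbouring pairs, the other scalings, the pseudocount of 0.1 or the fits without a library. The counts under these settings are therefore a description.

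In si-FGF9 versus NG the log2 fold change of INSR turned to 0.17, 0.38, 0.14 and 0.14 with median-of-ratios scaling, quantile normalization, the GC correction and the GC correction with the replicate block, and that of IRS1 to 0.10 with quantile normalization. Beyond the shift of the median of all genes that these scalings remove, the cause of these changes was not tested. IGFBP3 in HG+OE-FGF9 versus HG and IGFBP6 in si-FGF9 versus NG were called in all alternatives run.

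Libraries with the same replicate number did not deviate together more than others did (18 pairs, r from -0.44 to 0.25, median -0.06). For the 36 pairs with different numbers r ran from -0.34 to 0.46, with a median of 0. Deviations were taken from the mean of only 3 libraries per group, so these values cannot exclude that the numbers pair libraries. With the replicate block, the counts were 0, 4 and 1 members called and 7 neighbouring pairs, unchanged. The unknown depth limits what can be said of members at a few TPM, whose counting error is not known.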
